A study of Homo sapiens with 15 samples.

Results

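PIM1, CISH, BCL2L1, ID1 and SOCS2 are genes induced downstream of the BCR-ABL kinase and the transcription factor STAT5, and their accessible chromatin was read in K562 cells, a human erythroleukemia line that carries BCR-ABL. All peaks that touched 4 windows of the hg19 genome were taken: chromosome 6, 37130000 to 37160000 (PIM1), chromosome 3, 50635000 to 50660000 (CISH), chromosome 20, 30180000 to 30320000 (ID1 and BCL2L1) and chromosome 12, 93950000 to 93985000 (SOCS2). The windows were chosen by gene, not by measured values. They held 570 of the 1069283 peaks on the autosomes and X, and overlapping peaks merged into 44 sites among 120992 regions of the genome.

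The cells expressed, from lentivirus and under puromycin selection, either dCas9, a Cas9 that binds DNA without cutting it, or dCas9-KRAB, its fusion to a repressor domain that recruits histone-modifying co-repressors. The 15 DNase-seq libraries fell into 5 groups, each of 3. The first expressed dCas9-KRAB and no gRNA, the second and the third dCas9 together with the gRNA Cr4 or Cr10, and the fourth and the fifth dCas9-KRAB together with Cr4 or Cr10. Both gRNAs were aimed at HS2, an enhancer of the beta-globin locus on another chromosome, so any difference at these 5 genes would be a change away from the target. No group of untransduced cells was analysed here, and each group of K562 shared the BCR-ABL background. The study text reports transduction in triplicate. It does not say how the 3 libraries of a group were kept apart afterwards, so p-values measure the spread between these libraries, which may be technical.

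BCR-ABL is a constitutively active tyrosine kinase that phosphorylates STAT5. Phosphorylated STAT5 dimers enter the nucleus and bind the palindrome TTCNNNGAA, and in chronic myeloid leukemia cells they keep a set of survival and feedback genes transcribed. PIM1 is a serine/threonine kinase that promotes survival and growth. BCL2L1 encodes BCL-XL, an inhibitor of mitochondrial apoptosis. CISH and SOCS2 are SH2-domain proteins of the suppressor of cytokine signaling family that dampen receptor and JAK-STAT signaling. ID1 is a helix-loop-helix protein without a DNA-binding region that holds basic helix-loop-helix factors off DNA.

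The promoter sequences of 4 of the 5 genes are shown because the results turn on their promoter sites. SOCS2 is named only. They are RefSeq sequences of GRCh38.p14, a later build than the hg19 of the peaks, and give the 250 bases before the annotated start, 5′ to 3′ on the strand of the gene. Capitals mark TTCNNNGAA in CISH, GGGCGG on either strand in PIM1, CCAAT (read as ATTGG) and 2 overlapping matches of TATAAA on opposite strands in ID1, and TATAAA in BCL2L1. CISH lies on the minus strand at chr3:50611775-50612024, PIM1 on the plus strand at chr6:37169902-37170151, ID1 on the plus strand at chr20:31605039-31605288 and the outer BCL2L1 start on the minus strand at chr20:31723964-31724213.
CISH: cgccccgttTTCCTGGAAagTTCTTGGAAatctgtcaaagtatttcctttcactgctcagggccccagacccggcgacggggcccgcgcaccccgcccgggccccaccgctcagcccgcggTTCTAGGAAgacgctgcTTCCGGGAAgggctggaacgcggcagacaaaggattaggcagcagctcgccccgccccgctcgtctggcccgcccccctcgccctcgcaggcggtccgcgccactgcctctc
PIM1: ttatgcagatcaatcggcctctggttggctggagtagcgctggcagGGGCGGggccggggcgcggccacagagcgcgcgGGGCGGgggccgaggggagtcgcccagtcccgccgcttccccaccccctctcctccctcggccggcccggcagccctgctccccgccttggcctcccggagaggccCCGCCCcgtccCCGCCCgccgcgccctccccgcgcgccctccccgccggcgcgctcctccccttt
ID1: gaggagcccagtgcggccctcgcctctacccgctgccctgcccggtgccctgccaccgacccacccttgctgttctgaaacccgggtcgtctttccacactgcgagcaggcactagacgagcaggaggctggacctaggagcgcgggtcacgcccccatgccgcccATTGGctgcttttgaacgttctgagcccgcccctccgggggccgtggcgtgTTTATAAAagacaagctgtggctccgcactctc
BCL2L1: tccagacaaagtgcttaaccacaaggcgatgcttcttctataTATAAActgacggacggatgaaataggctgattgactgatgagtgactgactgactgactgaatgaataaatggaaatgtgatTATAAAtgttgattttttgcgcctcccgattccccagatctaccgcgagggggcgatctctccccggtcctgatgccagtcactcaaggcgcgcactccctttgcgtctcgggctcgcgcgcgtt

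The CISH promoter held 4 matches of the STAT palindrome: TTCCTGGAA, TTCTTGGAA, TTCTAGGAA and TTCCGGGAA, with first bases 241, 230, 129 and 112 bases before the start. Over windows of 300 bases that run to 50 bases after the start, 7.66% of 35116 RefSeq promoters held at least 1 match and 7 promoters, or 0.0199%, held 4. No promoter held more than 4. The windows of PIM1, ID1 and both BCL2L1 starts held 0 matches, which says only that these letters are not in them. The PIM1 window was the richest in bases G and C, at 79.7% with 39 CpG dinucleotides, against medians of 58.7% and 14 CpG over all promoters, and it held 4 matches of GGGCGG, a motif that occurred in 45.0% of all promoters. The CISH window had 70.3% G and C with 33 CpG and 3 matches of GGGCGG. ID1 had 62.7% with 22 CpG, and the outer BCL2L1 window 52.0% with 20 CpG and 2 matches of TATAAA, a motif of 11.5% of all promoters. ID1 was the member with CCAAT, 1 match, a motif that 34.6% of all promoters held. AGATAA, the GATA motif, had 0 matches in the windows of the members and was present in 10.3% of all promoters. All motifs were searched on both strands.

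Depth differed between libraries. The lists held 53147 to 94777 peaks, and the number of fragments stacked at a summit (the pileup, recovered from the fold and p-value of each peak) had a library median of 44 to 115 over the 38888 regions present in all 15 lists. In 4 libraries that median was 100 to 115: the second replicate of the no-gRNA group, and the third of dCas9 with Cr4, of dCas9 with Cr10 and of dCas9-KRAB with Cr4. In the other 11, among them all 3 of dCas9-KRAB with Cr10, it was 44 to 77. Pileups are therefore given as relative pileup, (pileup + 1) divided by (library median + 1), so that 1 is the typical constitutive region of that library. The number of copies of a locus in these cells was not corrected for. Its part in levels compared between loci was not tested. Among erythroid genes, GATA1, EPOR and HBG2 had a peak within 1000 bp of the start in all 15 lists, TAL1 in 14 and KLF1 in 4. Of 6 genes of lymphoid, liver, muscle and epithelial cells 5 had a peak in 0 lists and CD3E had one in 1 list.

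Each of the 5 genes had a promoter site, and all 5 sites were present in all 15 lists, in every group. The order of the 5 by median relative pileup was PIM1 (3.10), BCL2L1 (2.83), ID1 (1.77), CISH (1.54) and SOCS2 (1.50). PIM1 stood above 99.4% of the regions in all 15 lists and BCL2L1 above 98.5%, while ID1, CISH and SOCS2 stood above 81.8%, 74.6% and 73.4%. Gene starts on hg19 were recalled positions that were not checked against an annotation, and a promoter site is the site nearest to such a start within 1000 bp.

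**Figure D1:**
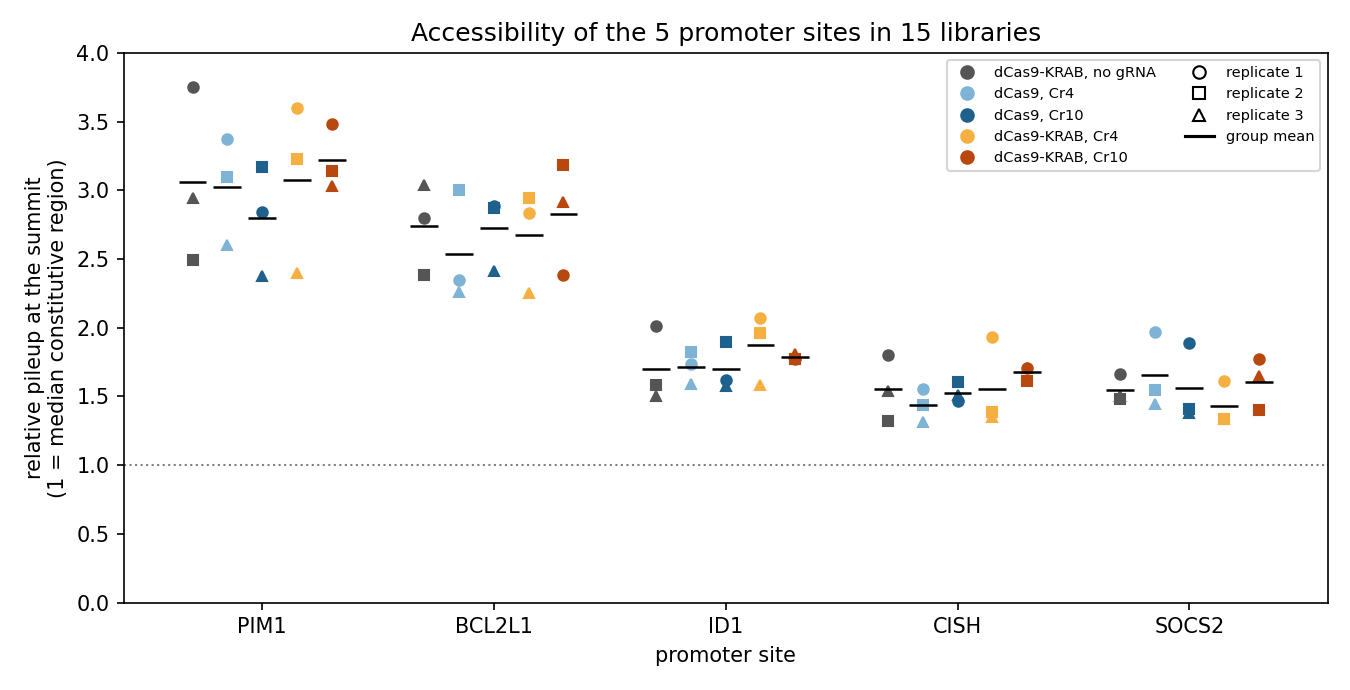
Relative pileup (y axis, 1 is the median constitutive region of a library) at the promoter sites of the 5 genes (x axis); points are single libraries, colour gives the group, shape the replicate, and short bars the mean of 3. PIM1 and BCL2L1 lie at 2.25 to 3.75 in all 15 libraries and the other 3 promoters at 1.32 to 2.07, and the 5 groups overlap within each gene except where the text says otherwise.

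The PIM1 promoter site was the tallest of the 44. It covered 1035 bp (chromosome 6, 37137236 to 37138270) with a median summit 143 bp before the start. Relative pileup was 3.75, 2.49 and 2.94 without a gRNA, 3.38, 3.10 and 2.60 in dCas9 with Cr4, and 2.84, 3.17 and 2.38 in dCas9 with Cr10. It was 3.60, 3.23 and 2.40 in dCas9-KRAB with Cr4, and 3.48, 3.14 and 3.03 in dCas9-KRAB with Cr10. The spread within the no-gRNA group, 2.49 to 3.75, was wider than the span of the group means, and all 5 groups overlapped. Group means were 3.06 ± 0.640 (SD, n = 3), 3.02 ± 0.390, 2.80 ± 0.396, 3.08 ± 0.612 and 3.22 ± 0.237 in the same order.

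The site at the outer BCL2L1 start covered 886 bp (chromosome 20, 30311045 to 30311930) with its summit 185 bp inside the gene. Relative pileup was 2.80, 2.38 and 3.04 without a gRNA, 2.35, 3.0 and 2.26 in dCas9 with Cr4, and 2.89, 2.87 and 2.41 in dCas9 with Cr10. It was 2.83, 2.95 and 2.25 in dCas9-KRAB with Cr4, and 2.39, 3.19 and 2.91 in dCas9-KRAB with Cr10. No group stood apart: means ran from 2.53 ± 0.405 (SD, n = 3) in dCas9 with Cr4 to 2.83 ± 0.406 in dCas9-KRAB with Cr10. The summit stayed within 10 bp over the 15 libraries, against 116 bp for PIM1 and 286 bp for CISH.

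PIM1 exceeded BCL2L1 in relative pileup in 11 of 15 libraries. By the fold of the peak over its local background, which is the value the authors deposited, the order was the opposite in 15 of 15, with medians of 12.6 for BCL2L1 and 9.15 for PIM1. The median local background was 15.4 fragments at BCL2L1 and 25 at PIM1. The order of these neighbours thus depends on the scale. BCL2L1 exceeded ID1 in 15 of 15 libraries on both scales.

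BCL2L1 has a second annotated start, 1095 bp inside the first on GRCh38. A separate site of 591 bp (chromosome 20, 30310278 to 30310868) lay 953 bp inside the outer start on hg19, in 14 lists, missing in dCas9 with Cr10 replicate 1. Its relative pileup was 0.826 to 1.09. The outer site was higher in 14 of 14 libraries, by a median factor of 2.77.

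At ID1 the promoter site covered 558 bp (chromosome 20, 30192842 to 30193399), with its summit 86 bp before the start. Relative pileup was 2.02, 1.58 and 1.50 without a gRNA, 1.74, 1.82 and 1.59 in dCas9 with Cr4, and 1.62, 1.90 and 1.58 in dCas9 with Cr10. It was 2.07, 1.96 and 1.58 in dCas9-KRAB with Cr4, and 1.77, 1.77 and 1.81 in dCas9-KRAB with Cr10. The 3 dCas9-KRAB Cr10 libraries lay close together, inside the range of each other group. ID1 exceeded CISH in 14 of 15 libraries, by a median factor of 1.12.

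The CISH promoter site covered 782 bp (chromosome 3, 50649049 to 50649830). A start of the opposite-strand gene MAPKAPK3 lies near it, 103 bp upstream of the CISH start on GRCh38. The summit of the site lay 335 bp before the CISH start. Relative pileup was 1.80, 1.32 and 1.54 without a gRNA, 1.56, 1.44 and 1.32 in dCas9 with Cr4, and 1.47, 1.60 and 1.51 in dCas9 with Cr10. It was 1.93, 1.39 and 1.35 in dCas9-KRAB with Cr4, and 1.71, 1.61 and 1.71 in dCas9-KRAB with Cr10. The lowest dCas9-KRAB Cr10 library was just above the highest dCas9 Cr10 library, while the no-gRNA libraries spanned both groups.

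SOCS2 had the smallest promoter site, 349 bp (chromosome 12, 93963398 to 93963746), with its summit 38 bp before the start. Relative pileup was 1.66, 1.48 and 1.50 without a gRNA, 1.97, 1.55 and 1.45 in dCas9 with Cr4, and 1.89, 1.41 and 1.38 in dCas9 with Cr10. It was 1.61, 1.33 and 1.34 in dCas9-KRAB with Cr4, and 1.77, 1.40 and 1.65 in dCas9-KRAB with Cr10. The first replicate was the highest in each of the 5 groups. CISH exceeded SOCS2 in 9 of 15 libraries by relative pileup, so these neighbours were not separated on that scale, and in 15 of 15 by fold. The SOCS2 fold was the lowest of the 5 promoters, 4.23 to 6.20, and 10 of 15 lists kept its peak when every list was shortened to its 53098 strongest.

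Around the promoters, accessible sites were dense in some windows and sparse in others. The PIM1 window held 6 sites, 4 of them in all 15 lists, the CISH window 7 and 3, the ID1 and BCL2L1 window 27 and 14, and the SOCS2 window 4 and 4. Together 25 of 44 sites (56.8%) were in all 15 lists, against 32.1% of all regions, and 3 (6.82%) were in 1 list, against 19.0%. The 25 were also longer (median 728 bp against 548 bp for all 38888 regions in every list) and had a median relative pileup of 1.50 against 1.00. By fold they stood lower: their median percentile in the deposited lists was 64.4, against 71.5. Apart from the promoters there were 39 sites, 20 of them in all 15 lists, with relative pileups of 0.485 to 1.94 and a median of 1.31.

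**Figure D2:**
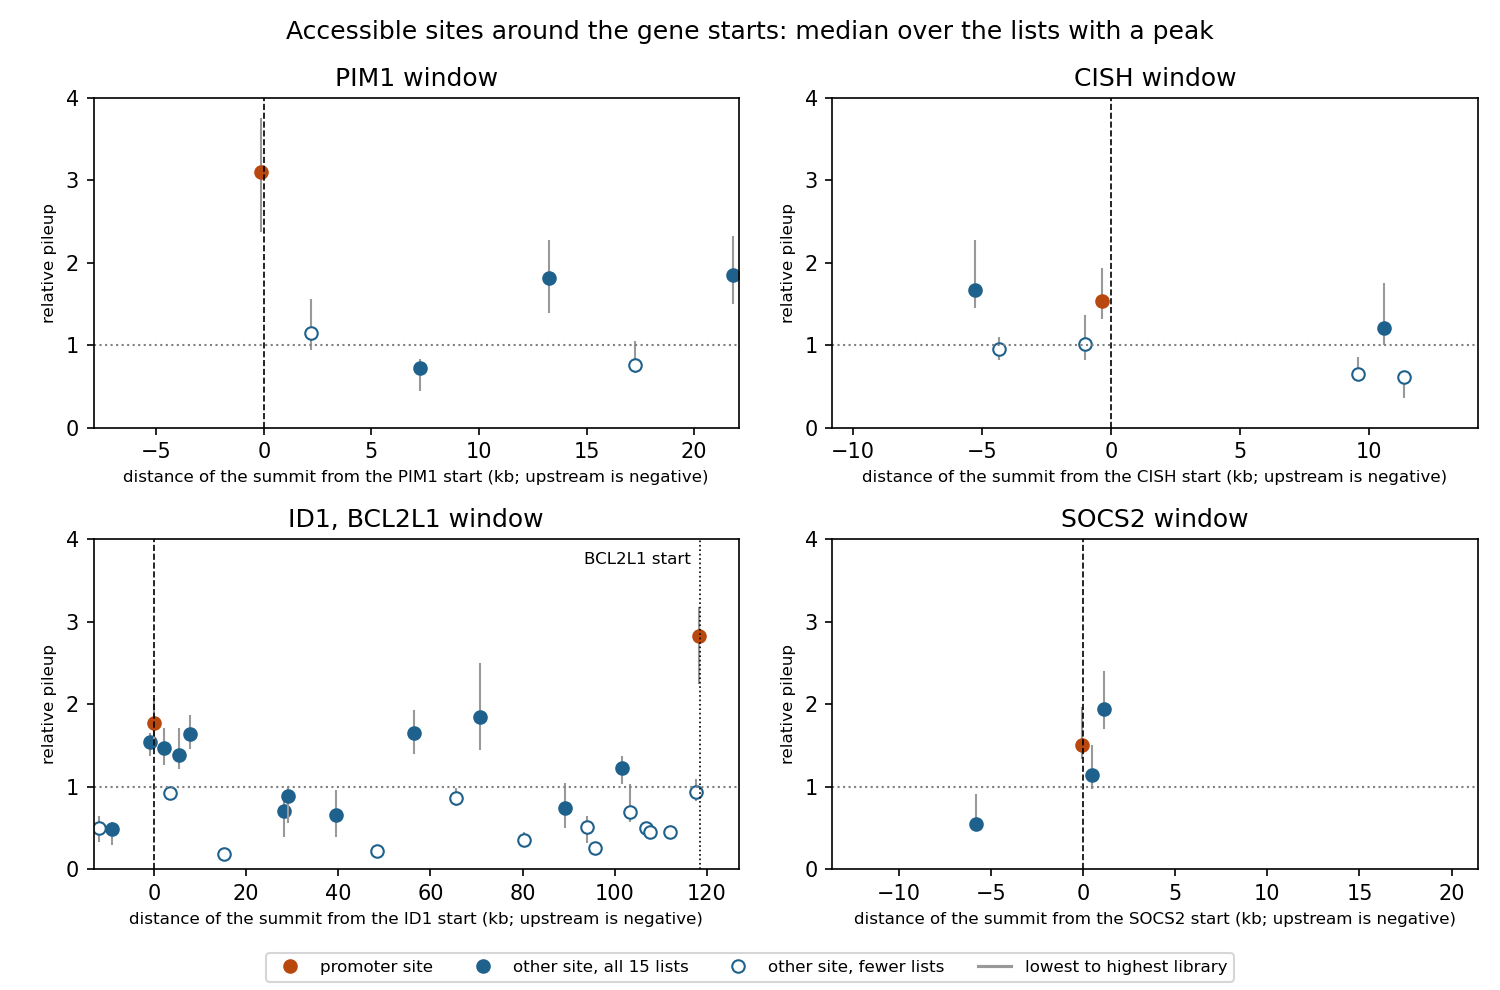
Sites in the 4 windows by the distance of their summit from the gene start (x axis, kb, upstream negative; the lower left panel counts from ID1 and marks BCL2L1) and their relative pileup (y axis); points are medians over the lists with a peak, vertical lines the lowest to highest library. Promoter sites of PIM1 and BCL2L1 (3.10 and 2.83) stand above every other site of their windows, whereas the sites 5285 bp upstream of CISH (1.67) and 1142 bp inside SOCS2 (1.94) lie above those promoters.

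Downstream of PIM1, 2 sites in all 15 lists had a median relative pileup above 1. The first (chromosome 6, 37150632 to 37151441) lay 13258 bp after the start with a relative pileup of 1.38 to 2.28 (median 1.81). The second (37159555 to 37160053) lay 21832 bp after it with 1.50 to 2.32 (median 1.85). Both lay farther from the start than the RefSeq length of PIM1, 5277 bp on GRCh38. Each was below the PIM1 promoter in relative pileup in 15 of 15 libraries and above it in fold in 15 of 15, with median folds of 11.5 and 11.9 against 9.15. Their median local backgrounds were 10.4 and 10.1 fragments, against 25 at the promoter. A weaker site 7272 bp after the start (37144996 to 37145561) had 0.444 to 0.831 in all 15 lists. The remaining PIM1 sites, 2209 and 17273 bp after the start, were in 14 and 11 lists.

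In the CISH window a site 5285 bp upstream of CISH (chromosome 3, 50654266 to 50654735) had a relative pileup of 1.45 to 2.28 and exceeded the CISH promoter in 13 of 15 libraries. On GRCh38 MAPKAPK3, a MAP kinase-activated kinase on the opposite strand, has RefSeq promoter starts 103 and 5377 bp upstream of the CISH start. The farther of these starts is close to the site 5285 bp upstream, although the distances come from different builds. The annotated MAPKAPK3 gene reaches 254 bp into CISH. On the other side, a site 10568 bp downstream of the CISH start (50638253 to 50639015) had 1.00 to 1.75. It was below the promoter in relative pileup in 15 of 15 libraries and above it in fold in 15 of 15. The CISH gene is 5286 bp long on GRCh38, and the next gene on that side, HEMK1, ends 15608 bp from the 5′ end of CISH. The other 4 CISH sites were in 5 to 14 lists.

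Around ID1, 4 sites in all 15 lists lay within 8 kb of the promoter site. Their summits were 923 bp before the start (chromosome 20, 30191831 to 30192355) and 2140 (30195013 to 30195427), 5497 (30198394 to 30198825) and 7727 bp (30200616 to 30201042) after it. Median relative pileups were 1.54, 1.47, 1.38 and 1.63, against 1.77 at the promoter. The sites 923 bp before and 7727 bp after the start were the steadiest of the 25 across libraries, with coefficients of variation of 6.15% and 6.88%. Only 0.635% and 1.75% of all regions in 15 lists varied less. The farthest of the 4 had a higher fold than the ID1 promoter in 15 of 15 libraries (median 10.6 against 7.32), with a median background of 9.64 against 16.5 fragments.

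Farther from ID1 the constitutive sites had lower relative pileups, apart from a site 56472 bp after its start (30249307 to 30250290), at 1.40 to 1.93 and a median fold of 11.3. The sites at 28208 (30220904 to 30221635), 29163 (30222094 to 30222398) and 39622 bp (30232378 to 30232881) had medians of 0.704, 0.884 and 0.654. By fold they were not lower: their medians of 7.09, 7.92 and 8.64 exceeded those of 3 of the 4 near sites (6.35, 5.22 and 6.31). The last 2 also exceeded the 7.32 of the ID1 promoter. The one 9095 bp before the start (30183543 to 30184293) had 0.485, the lowest of the 25 sites, and was in 11 of 15 shortened lists. The 39622 bp site had the largest coefficient of variation of the 25, 27.9%. On GRCh38 another gene, COX4I2, lies 32623 to 39717 bp after the ID1 start. Its farther edge is close to the 39622 bp site, although the distances come from different builds. Distances from ID1 give positions only, and which gene these sites serve was not tested.

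Inside BCL2L1, whose RefSeq length is 59512 bp on GRCh38, lay 13 sites including both starts, and 4 of them, the outer start among them, were in all 15 lists. Apart from the outer start, the highest in relative pileup was the site 47845 bp after it (30263126 to 30264186), which split into 2 peaks in 13 of 15 lists. Its relative pileup was 2.20, 1.70 and 1.80 without a gRNA, 2.22, 1.71 and 1.84 in dCas9 with Cr4, 1.51, 1.45 and 1.69 in dCas9 with Cr10, 2.50, 2.11 and 1.46 in dCas9-KRAB with Cr4, and 2.27, 1.97 and 2.03 in dCas9-KRAB with Cr10. All dCas9 Cr10 libraries were below all no-gRNA libraries (1 of 25 sites, against 1.61% of all regions). They were also below all dCas9-KRAB Cr10 libraries (3 of 25, against 2.42%). The same held against dCas9 with Cr4 (highest 1.69 against lowest 1.71), for which no share over all regions was computed. They overlapped dCas9-KRAB with Cr4. The sites 17001 bp (30294343 to 30295070) and 29398 bp (30281781 to 30282550) after the start had medians of 1.23 and 0.739. By fold the 17001 bp site, with a median of 10.9, stood above the one at 47845 bp, with 9.24.

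All 4 SOCS2 sites were in all 15 lists. The highest in relative pileup was not the promoter site but one of 1403 bp (chromosome 12, 93964323 to 93965725) whose median summit lay 1142 bp inside the gene and which held 2 peaks in 14 lists. Its relative pileup was 1.70 to 2.41, above the promoter site in 14 of 15 libraries by a median factor of 1.25. Between them a site 515 bp after the start (93963966 to 93964291) had 0.968 to 1.50 and a peak in 1 of 15 shortened lists. A site 5805 bp upstream (93957467 to 93958329) reached a median of 0.358 times the pileup of the promoter. Its fold was nevertheless higher than that of the promoter in 15 of 15 libraries (median 9.02 against 4.91). Its median background was 3.82 against 21.9 fragments, and its median fold also exceeded the 6.22 of the 1403 bp site. On GRCh38 another gene, SOCS2-AS1, runs from upstream of the SOCS2 start to 1429 bp inside SOCS2. That inner edge is close to the summit of the 1403 bp site, although the distances come from different builds. Which gene the 1403 bp site serves was not tested.

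The 19 sites missing from at least 1 list had low folds where they were present. In the 9 sites found in 10 to 14 lists the median fold was 3.27 to 5.20, and in the 10 found in fewer it was 2.79 to 3.96. Some constitutive sites had median folds in the same range, such as 3.67 at the site 515 bp inside SOCS2 and 4.98 at the site 7272 bp after the PIM1 start. Others reached up to 12.6, at the BCL2L1 promoter. The median relative pileup of the 19 sites ran from 0.179 to 1.15 and so also overlapped that of the constitutive sites, and 2 of the 19 stood above 1. The number of sites per library ran from 27 in the shortest list (dCas9 with Cr10 replicate 1) to 41 in the longest (dCas9 with Cr10 replicate 3), 2 libraries of the same group. Of the 4 sites in 14 lists, 3 were missing only in that shortest list. By group the libraries held 30 to 38 sites without a gRNA, 34 to 37 in dCas9 with Cr4, 27 to 41 in dCas9 with Cr10, 34 to 40 in dCas9-KRAB with Cr4 and 32 to 36 in dCas9-KRAB with Cr10. These ranges overlapped. With lists of equal length, 12 of the 44 sites had no peak left in any library and 19 had one in all 15.

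**Figure D3:**
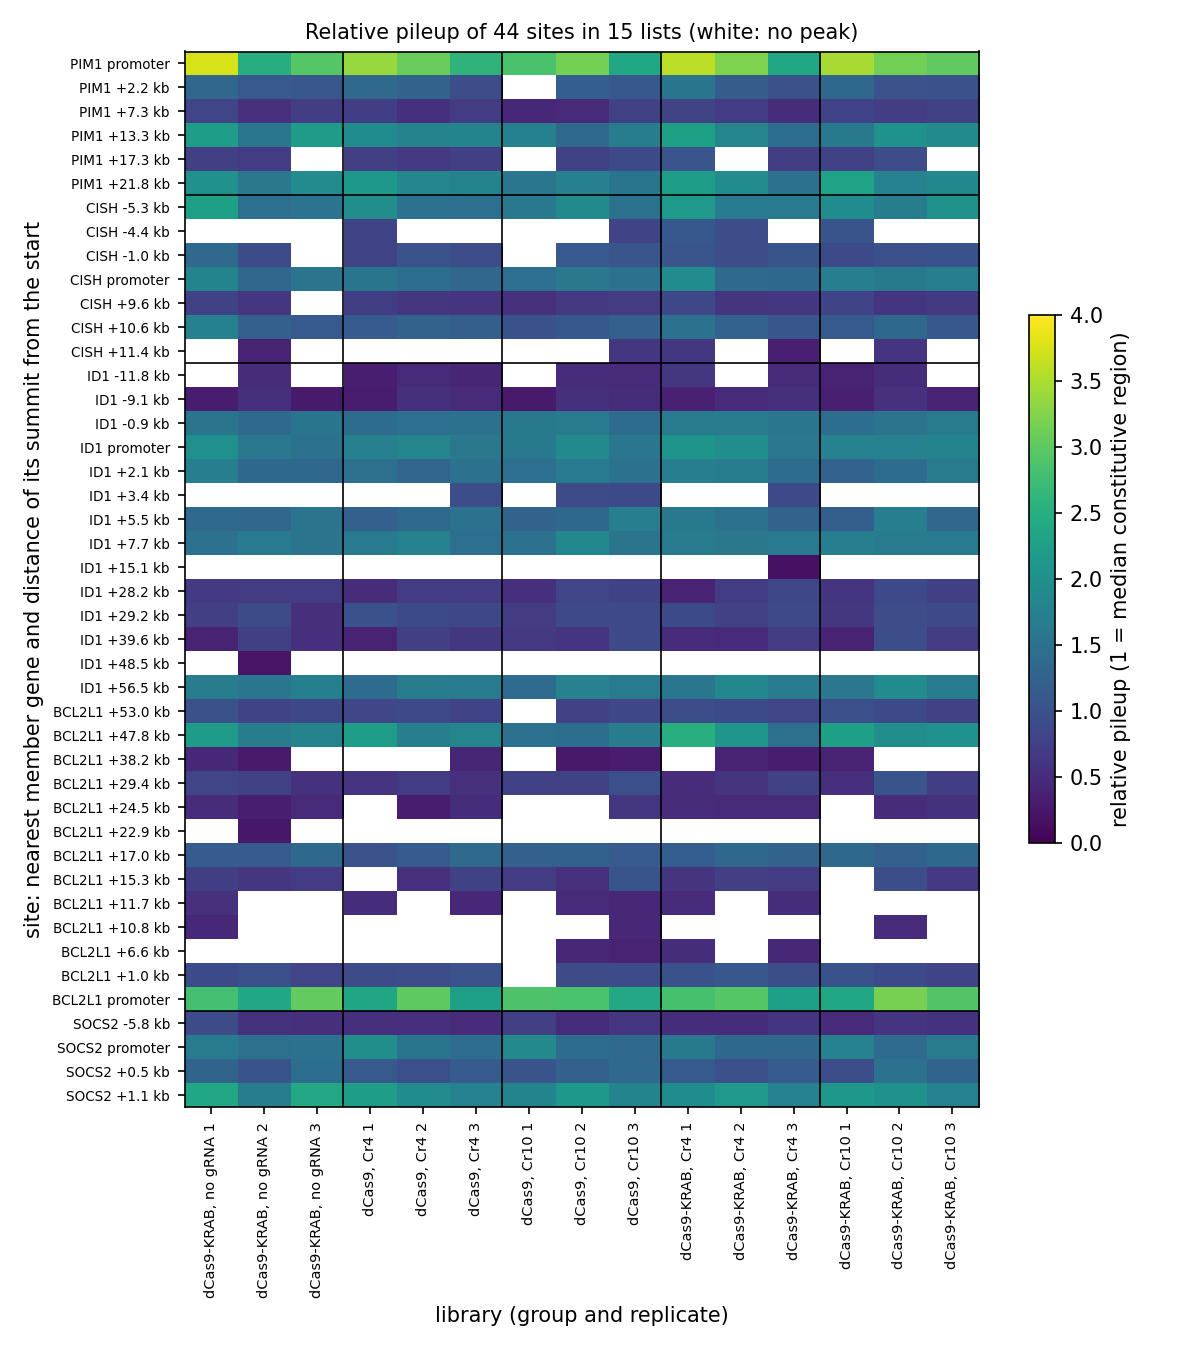
Relative pileup (colour, 1 is the median constitutive region; white is no peak) of the 44 sites (rows, by window and position, named by nearest gene and distance of the summit from its start) in the 15 libraries (columns, by group and replicate). White cells are most frequent in dCas9 with Cr10 replicate 1, which held 27 sites, and least in replicate 3 of that group, which held 41.

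Whether dCas9-KRAB brought to HS2 changed these genes was asked by 8 comparisons between groups, each on 2 measures: the rank percentile of a site by fold in lists of equal length (100 for the strongest peak, 0 for no peak) and the log2 relative pileup. No site passed the test in any of the 8 comparisons on either measure. Limma called 0 of 30 sites by rank and 0 of 25 by pileup at an adjusted p (Benjamini-Hochberg over all regions) under 0.05. The background was the same: 0 of 62858 regions by rank and 0 of 38888 by pileup, or 0%, in each comparison. At an unadjusted p under 0.05, 3 of 240 tests of sites by rank (1.25%) and 2 of 200 by pileup (1.00%) passed. Over all regions 1.25% to 2.97% passed by rank and 0.213% to 1.3% by pileup, depending on the comparison. These shares are below the threshold of 0.05, so the p-values and intervals given here may be conservative. The 3 tests by rank fell in dCas9 with Cr10 (2 sites, against 2.97% of regions) and in dCas9-KRAB with Cr10 (1 site, against 2.81%), each set against the no-gRNA group. Both by pileup fell in dCas9-KRAB against dCas9 under Cr10, against 1.3% of regions. Those 30 and 25 sites are the ones with a peak in at least 3 shortened lists and in all 15 deposited lists.

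Across the largest groups, the 6 gRNA libraries of dCas9-KRAB against the other 9, the promoters of PIM1, BCL2L1, ID1 and CISH had slightly higher estimates and SOCS2 a lower one, all within error. Those of PIM1, BCL2L1, ID1 and SOCS2 turned by rank under some alternatives: without the 4 deepest libraries the differences were −1.98 points at PIM1, −1.34 at BCL2L1 and −0.325 at ID1, and with 1 library left out the difference at SOCS2 ran from −5.33 to 2.40, the latter without dCas9 with Cr10 replicate 1. The log2 differences in relative pileup were 0.09 for PIM1 (95% interval −0.14 to 0.32), 0.04 for BCL2L1 (−0.16 to 0.25), 0.10 for ID1 (−0.08 to 0.28), 0.10 for CISH (−0.09 to 0.28) and −0.06 for SOCS2 (−0.26 to 0.13). In rank percentile they were 1.64 points for PIM1 (SE 5.24), 0.451 for BCL2L1 (SE 2.01), 2.81 for ID1 (SE 6.13), 6.95 for CISH (SE 6.93) and −0.938 for SOCS2 (SE 6.99). Limma's adjusted p was 1.00 for each on both measures. The intervals on the pileup leave room for changes up to the bounds given, so equal accessibility was not shown. Over the 25 sites, 18 estimates were above 0 and 7 below, from −0.12 to 0.19, with a median of 0.0442 against 0.00359 over all 38888 regions. By rank 21 were above and 9 below 0, from −9.42 to 8.69 points, with a median of 1.3 against 0.113. The 4 SOCS2 sites were all below 0 by pileup, and none of them passed the test.

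**Figure D4:**
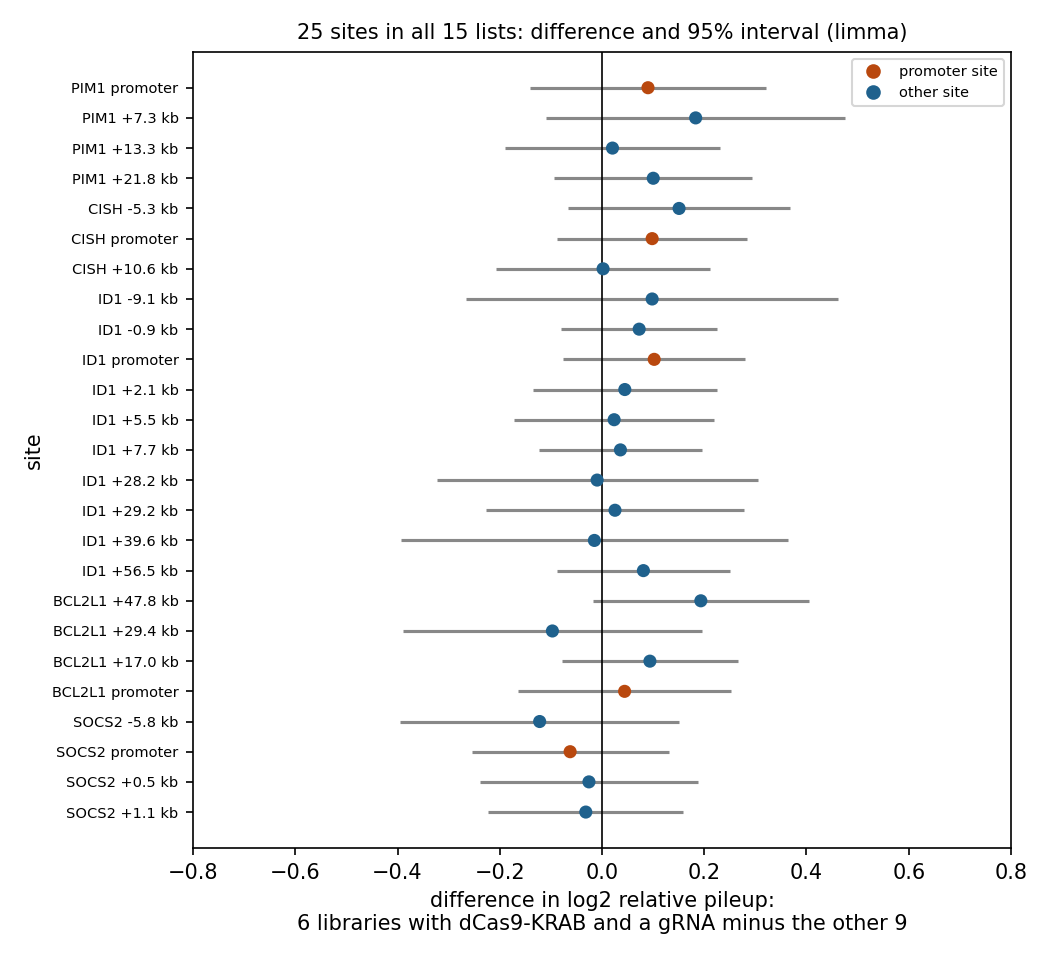
Difference in log2 relative pileup (x axis) between the 6 gRNA libraries of dCas9-KRAB and the other 9, at the 25 sites in all 15 lists (y axis, nearest gene and distance of the summit from its start); points are limma estimates, lines 95% intervals. Estimates run from −0.12 to 0.19 and every interval includes 0.

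Groups of 3 that did not overlap were few and differed between measures. By pileup, dCas9-KRAB with Cr10 lay wholly above dCas9 with Cr10 at 3 of 25 sites, against 2.42% of all regions: the CISH promoter, the site 21832 bp downstream of PIM1 and the site 47845 bp inside BCL2L1. The last had a log2 difference of 0.43 (SE 0.159, limma unadjusted p = 0.0116, adjusted p = 1.00). The PIM1 site 7272 bp after the start, with 0.806, 0.729 and 0.768 against 0.444, 0.474 and 0.784, overlapped and differed by 0.48 (SE 0.220, limma unadjusted p = 0.0380, adjusted p = 1.00). In dCas9-KRAB with Cr4, the site 923 bp before ID1 lay above the no-gRNA group (1 of 25 sites, against 2.41% of all regions) and above dCas9 with Cr4 (1 of 25, against 1.51%). The BCL2L1 site at 47845 bp was lower in dCas9 with Cr10 than without a gRNA (1 of 25, against 1.61%), and the site 7727 bp after ID1 was lower with Cr4 than with Cr10 under dCas9-KRAB (1 of 25, against 2.40%). In the comparisons of dCas9-KRAB with Cr10 and of dCas9 with Cr4 against no gRNA, 0 of 25 sites separated. Over the pooled groups 0 of 25 sites separated, against 0 of 38888 regions, so that count says nothing particular about these sites. Over all regions, 1.26% to 2.42% by pileup and 1.81% to 2.99% by rank separated in 1 direction in a comparison of 3 libraries with 3.

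By rank percentile the site 10568 bp downstream of CISH stood at 79.4, 62.2 and 68.5 without a gRNA. It stood at 60.4, 52.2 and 49.3 in dCas9 with Cr10, wholly below (1 of 30 sites, against 2.60% of all regions), a difference of −16.1 points (SE 6.41, limma unadjusted p = 0.0233, adjusted p = 1.00). With dCas9-KRAB and Cr10 it stood at 64.3, 50.5 and 52.3, which overlapped the group without a gRNA and differed by −14.4 points (SE 6.41, limma unadjusted p = 0.0402, adjusted p = 1.00). These comparisons share the libraries without a gRNA. The site 13258 bp downstream of PIM1 was at 84.0, 75.1 and 80.0 in dCas9 with Cr10, against 86.5, 83.9 and 91.0 without a gRNA (−7.40 points, SE 3.36, limma unadjusted p = 0.0432, adjusted p = 1.00), and it was wholly lower with dCas9-KRAB than with dCas9 under Cr4 (1 of 30, against 1.94%). The PIM1 site at 7272 bp was wholly higher with dCas9-KRAB than with dCas9 under Cr10 (1 of 30, against 2.38%), with a value of 0 in 2 of the 3 dCas9 libraries. The site 17001 bp inside BCL2L1 was wholly higher in dCas9-KRAB with Cr4 than without a gRNA (1 of 30, against 2.95%). A test of whether the effect of KRAB differed between Cr4 and Cr10 called 0 sites on either measure and 0% of all regions. At an unadjusted p under 0.05 it had 0 sites, against 2.18% of regions by rank and 0.625% by pileup.

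Relative pileup at the PIM1 promoter was lower in the deepest libraries, and at the other promoters the deeper and shallower libraries overlapped. In the 4 libraries with a median pileup of 100 to 115 the PIM1 promoter stood at 2.38 to 2.60. In the other 11 it stood at 2.84 to 3.75. Of those 11, the shallowest library (dCas9 with Cr10 replicate 1, median 44) had the lowest value, 2.84. The PIM1 promoter was the 1 site of 25 at which the 4 and the 11 did not overlap in relative pileup. By fold they did not overlap at 2 sites, the PIM1 promoter (7.03 to 8.39 against 8.80 to 10.4) and the BCL2L1 promoter (10.6 to 11.1 against 11.7 to 15). At BCL2L1 the values were 2.25 to 2.41 and 2.35 to 3.19, at ID1 1.58 to 1.59 and 1.50 to 2.07, at CISH 1.32 to 1.51 and 1.39 to 1.93, and at SOCS2 1.34 to 1.48 and 1.33 to 1.97. The median of the deeper set was lower at 17 of 25 sites and higher at 8. This split was not made over all regions, so whether such counts are particular to these sites was not tested. These 4 libraries fall in 4 groups and none in dCas9-KRAB with Cr10, the group with the highest mean at PIM1, BCL2L1 and CISH. Without them limma still called 0 sites in each of the 8 comparisons. The part of depth in the single differences above was not tested further.

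**Figure D5:**
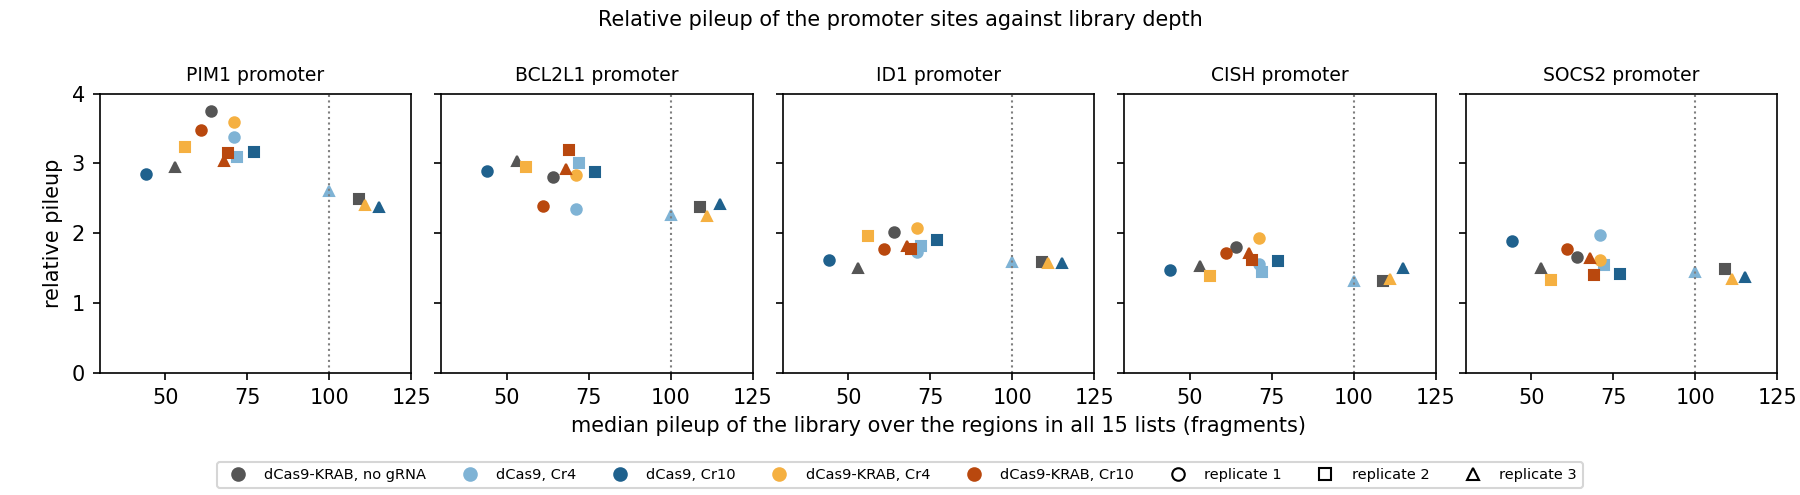
Relative pileup of each promoter site (y axis) against the median pileup of the library over 38888 common regions (x axis, fragments; dotted line at 100); each point is 1 library, coloured by group and shaped by replicate. The 4 libraries at 100 or above are the 4 lowest at PIM1 (2.38 to 2.60), and at BCL2L1 they overlap the other 11 (2.25 to 2.41 against 2.35 to 3.19).

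The promoters partly varied together across the 15 libraries. Pearson's r of the log2 relative pileup was 0.81 between PIM1 and ID1, 0.76 between PIM1 and CISH and 0.64 between ID1 and CISH, but 0.46 between PIM1 and BCL2L1 and −0.05 between BCL2L1 and SOCS2. These values describe libraries that differ in depth, with PIM1 lower in the 4 deepest, and carry no test. The 3 regions elsewhere whose relative pileup was most like the 5 promoters over the same libraries were on chromosome 7 (1498952 to 1499648), chromosome 11 (64072191 to 64073872) and chromosome 17 (43393926 to 43395039), with mean r of 0.73, 0.72 and 0.72.

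Other genes of the pathway had accessible promoters as well. Of 18 genes, 14 had a peak within 1000 bp of the recalled start in all 15 lists and 4 in fewer: the transcription factor gene STAT5A in 13, the cytokine gene OSM in 8, and the cyclin genes CCND1 in 13 and CCND2 in 14. The median relative pileup of the 14 was 1.90, between 0.946 at JAK2, a kinase upstream of STAT5, and 4.24 at CRKL, an adaptor that BCR-ABL phosphorylates. These levels are not corrected for copy number. PIM2, a relative of PIM1, stood at 1.86, SOCS1 and SOCS3, relatives of SOCS2, at 1.89 and 2.41, and STAT5B at 1.21. Limma called 0 of 15 of these promoters by rank and 0 of 14 by pileup in each of the 8 comparisons, against 0% of all regions, and 0 had an unadjusted p under 0.05. In the pooled comparison 9 of the 14 estimates by pileup were above 0 and 5 below, from −0.10 to 0.19, with a median of 0.0233 against 0.00359 over all regions. By rank 13 of 15 were above 0 and 2 below, with a median of 1.34 points against 0.113.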

How the data were processed

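DNase-seq peaks of 15 K562 libraries were analysed as the authors deposited them, 1 narrowPeak list per library on hg19. Per the submitters' processing notes, CASAVA 1.3, BWA and bedtools were used. Not given in the sources used here are the caller, its threshold and fragment totals. The deposited fold is a ratio of the summit to its local background, the deposited p-value and q-value columns are −log10 values, and the deposited score is a whole number that was not used. Groups follow titles and design text, since 1 label names HS2 as target also where no gRNA was given.

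Peaks on the autosomes and X that overlapped by 1 bp were merged. For ranks each list was shortened to 53098 peaks (56.1% to 100% kept), giving 78352 regions, of which 62858 had a peak in at least 3 lists. Pileup k was solved from fold = (k + 1)/(λ + 1) and the Poisson p-value, λ being the background. A whole k met both columns within 0.01 for 100% of peaks, against 4.718% with p-values shuffled. The log2 of k + 1 was centred on the library median over 38888 regions.

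Limma 3.58.1 (R 4.3.3) fitted the 5 groups with a mean-variance trend and two-sided tests, adjusted by Benjamini-Hochberg over all regions. Python 3.11.15 with numpy 2.4.6, pandas 2.3.3 and scipy 1.17.1 did the rest, and the code was tested on simulated data. No 2 lists shared more than 0.703% identical peaks. Alternatives covered list length, filters, merging, centring, limma settings, the replicate number and each library left out. Named are the promoter sites, the other sites in all 15 lists, and sites whose groups separated or whose unadjusted p was under 0.05. The sites named for separation or unadjusted p, and the pathway and marker genes singled out, were chosen after their values were seen. Members, lists and tests were chosen with earlier results of these data known. RefSeq promoters matched 4 of 5 genes. Exon and intron positions on hg19 were not analysed here. One of the marker genes is not reported here.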

Additional observations from a re-analysis of the deposited data

How the results depend on the processing

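Over 376 alternative fits of the 16 counts of called sites (8 comparisons, 2 measures), 0 fits called a site. At most 4 sites in a fit had an unadjusted p under 0.05: 4 of 25 by pileup, against 3.3% of all regions, in dCas9 with Cr10 against no gRNA without the 4 deepest libraries. Same-numbered replicates did not deviate together throughout: 13 of 30 same-number pairs by rank (r −0.19 to 0.42) and 19 of 30 by pileup (r −0.28 to 0.65) correlated above 0.1. Mean r was nevertheless higher for the same number than for other numbers (0.12 against −0.06 by rank, 0.195 against −0.0945 by pileup), and 10 of 15 libraries were closest to their own number. With the replicate block 0 of these sites were called. Over all 38888 regions the block gave 1 call by pileup in each of 3 comparisons that had 0 without it.

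The pooled promoter differences are near 0, and 19 of their 235 alternative values reversed sign. Leaving out 1 library, rank differences ran from −5.33 to 2.40 points at SOCS2, −0.370 to 1.24 at BCL2L1 and −1.06 to 4.03 at PIM1, and the BCL2L1 log2 pileup difference from −0.00013 to 0.10. Without the 4 deepest libraries, an alternative added after seeing the data, the rank differences were −0.325 at ID1, −1.34 at BCL2L1 and −1.98 at PIM1. In the deposited lists they were −0.361 at BCL2L1 and −0.185 at PIM1. The log2 of the rank gave −0.0059 at BCL2L1. Its pileup difference was −0.0052 with quantile normalization and −0.035 without centring. The cause of these reversals was not tested.

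Sites in all lists numbered 19 in lists of equal length, 24 at −log10 q of at least 5, and 25 to 28 with 1 library left out, the most without dCas9 Cr10 replicate 1. List length thus limits what presence shows for weak sites.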
